A study of Homo sapiens with 42 samples.

Results

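Accessible chromatin was compared between MCF10A cells given EGF and the cells they started from. MCF10A is an immortal human cell line from breast epithelium that does not form tumours and is usually grown with EGF. The comparison took 12 of the 42 libraries of the series, chosen by their titles. They were 4 CTRL libraries, taken at 0 h, 4 taken after 24 h of EGF and 4 after 48 h of EGF, each set with replicates A to D. All cells had been plated on collagen-1 and then kept in experimental medium without EGF or insulin, but with horse serum, hydrocortisone and cholera toxin. CTRL cells were harvested at that point, and the labels give them PBS at 0 ng/ml. The other cells received EGF at 10 ng/ml in fresh experimental medium. EGF therefore came together with fresh medium and with 24 h or 48 h more in culture, and these cannot be told apart in this comparison. Names of the deposited files also give PBS for CTRL. The study calls its replicates biological, and the labels do not name separate cultures, so the p-values measure the spread between these libraries.

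EGF binds the receptor tyrosine kinase EGFR, which pairs with itself or with other ERBB receptors and activates the RAS to ERK and the PI3K to AKT cascades. ERK induces immediate early genes, among them FOS and JUN family members, whose proteins pair as the transcription factor AP-1. AP-1 binds many distal regulatory elements of epithelial cells, and DUSP and SPRY proteins damp the cascade. ATAC-seq, the sequencing assay for chromatin open to a transposase, marks DNA that a transposase can reach, such as active promoters and enhancers, and a peak is a stretch where its fragments pile up above the local background.

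At 109 of the 29116 sites that all 12 libraries shared, the peak was weaker after 48 h of EGF than in CTRL, and at none was it stronger at the same threshold. Most of these sites lay away from promoters, with 66 between genes, 42 in introns and 1 at a promoter. At 24 h none of the 29116 sites passed that threshold in either direction. The sequences of 2 of these sites are shown, the CD44 site because it fell between 24 h and 48 h and the KCNT2 site because it was already low at 24 h. Each window is 201 bases of hg38 centred on the middle summit, and capitals mark the AP-1 motif TGANTCA, which reads the same on both strands.
CD44 intron, chr11:35214876-35215076, + strand: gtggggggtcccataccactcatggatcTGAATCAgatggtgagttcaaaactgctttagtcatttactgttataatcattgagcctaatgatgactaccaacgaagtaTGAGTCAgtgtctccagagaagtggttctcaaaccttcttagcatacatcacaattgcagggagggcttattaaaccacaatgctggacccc
KCNT2 intron, chr1:196361417-196361617, + strand: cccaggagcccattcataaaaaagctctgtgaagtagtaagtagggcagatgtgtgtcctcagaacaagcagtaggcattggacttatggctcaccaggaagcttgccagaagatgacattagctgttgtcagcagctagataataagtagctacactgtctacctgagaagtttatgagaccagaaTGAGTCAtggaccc
The KCNT2 window holds 1 such motif and the CD44 window 2. A match is a run of letters and not a measured binding event.

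Across the libraries, CTRL gave more peaks than EGF. On the primary chromosomes, CTRL replicates A to D gave 108460, 110987, 106515 and 111312 peaks. EGF at 24 h gave 60216, 43138, 83823 and 100720 peaks, and EGF at 48 h gave 73471, 78932, 86067 and 78411. Every EGF library was below every CTRL library. The geometric mean of the 8 EGF libraries was 0.673 times that of CTRL, a difference of -0.172 on the log10 scale (exact permutation test, two-sided, p = 0.0162, adjusted p = 0.0273 over 3 measures). Depth was unknown because read counts were not among the values used here, and intervals that need counts are not given.

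**Figure D1:**
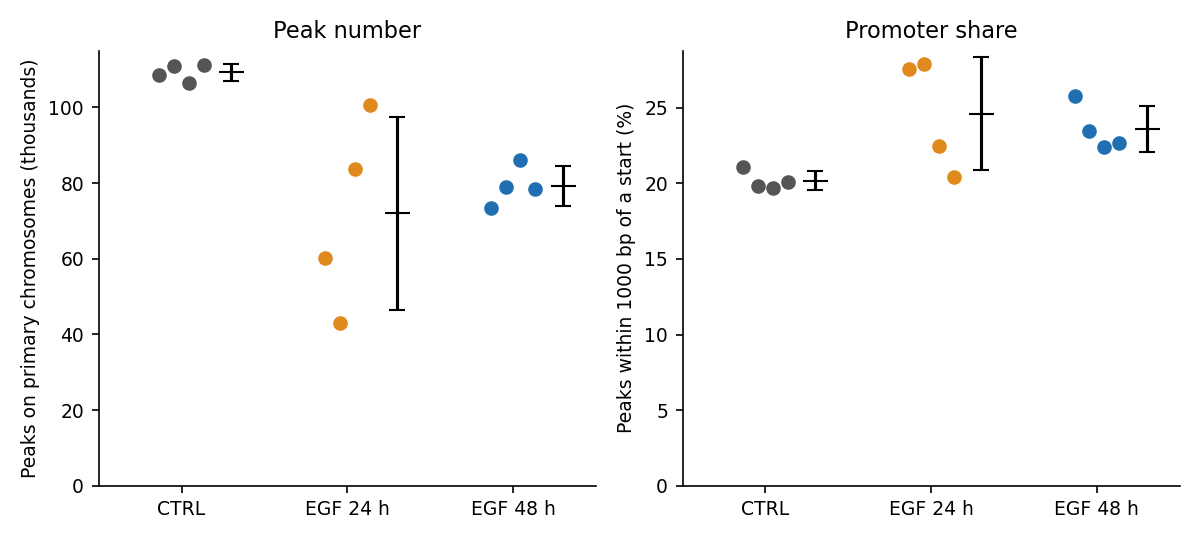
Peak number (left, axis in units of 1000) and the percentage of peaks within 1000 bp of a transcription start (right), with 1 point per library and the mean and SD of 4 libraries beside each group. All 8 EGF libraries gave fewer peaks than the 4 CTRL libraries, and EGF at 24 h spread most, from 43138 to 100720.

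Promoters took a larger share of the peaks after EGF. In CTRL, 20.2% ± 0.63 of the peaks had a protein-coding start within 1000 bp, against 24.6% ± 3.74 in EGF 24 h and 23.6% ± 1.51 in EGF 48 h (SD over 4 libraries). The difference of both EGF times from CTRL was 3.95 percentage points (exact permutation test, two-sided, p = 0.0182, adjusted p = 0.0273). With the same number of strongest peaks taken from every library, it was 2.35 points. Median fold enrichment, which is the pileup at the summit over the local background, was 7.38 ± 0.175 in CTRL and 6.74 ± 0.573 after EGF (SD, n = 4 and n = 8, exact permutation test p = 0.0545). Sequencing lanes 4, 6 and 8, as numbered in the names of the deposited files, held both groups. Within them, CTRL gave 111312, 109724 and 106515 peaks on average and EGF gave 78647, 78932 and 86067. Promoter shares within these lanes were 20.1%, 20.4% and 19.7% in CTRL and 24.1%, 23.5% and 22.4% after EGF. Lanes 5 and 7 held EGF libraries alone. Whether libraries with the same lane number were sequenced in the same run was not checked.

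Markers of the line were checked by a peak within 1000 bp of a transcription start. Among 9 mammary epithelial markers, CTRL libraries showed 7 or 8 and EGF libraries 5 to 8, and TP63 showed none in any library. Fibroblast markers showed 0 to 2 of 7, endothelial markers 0 to 2 of 6, and leukocyte markers 2 of 6 in every library, CD14 and CSF1R. Log2 fold enrichment at the shared sites correlated between replicates at 0.792 to 0.851 in CTRL, 0.599 to 0.82 at 24 h and 0.74 to 0.808 at 48 h, as a description across sites.

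Peaks of the 12 libraries merged into 131584 sites. Of these, 76542 had a peak in 2 to 11 libraries and were tested for detection, and 29116 had a peak in all 12 and were tested for strength. Strength was the quantile-normalised log2 fold enrichment. A site was called at an adjusted p under 0.01 (limma, Benjamini-Hochberg) and a difference of at least 0.5.

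By strength, the 2 EGF times together gave 0 stronger and 1 weaker site against CTRL, or 0% and 0.00343% of the 29116 tested, with 4481 sites at an unadjusted p under 0.05. EGF at 24 h alone gave 0 in both directions (0%), with 3825 sites at an unadjusted p under 0.05. At 48 h, 109 sites were weaker (0.374%) and 0 stronger (0%). At a threshold of 0.05, chosen after seeing the data, 444 sites were weaker (1.52%) and 24 stronger (0.0824%) at 48 h. For both times together that threshold gave 57 weaker (0.196%) and 8 stronger (0.0275%) sites. The count of 109 was 43, 24, 38 and 33 without CTRL replicates A, B, C and D. It was 176 without EGF 24 h replicate B, and 68, 63 and 65 without EGF 48 h replicates A, B and D. With sequencing lane as a term it was 28, and with log10 peak number as a covariate, which is nearly confounded with the groups, it was 11. All 109 sites were lower in both of these fits, with medians of -0.88 (107 of them called at 0.05) with lane and -0.80 (50 called at 0.05) with the covariate. Both fits reuse the values that chose the 109 sites, so these signs and medians are no separate evidence.

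The 1 site weaker at both times together lay in an intron of KCNT2, which encodes a sodium-activated potassium channel, 246842 bp from its start (chr1:196361130-196361841). Its log2 fold enrichment in CTRL replicates A to D was 3.83, 3.72, 3.64 and 3.88. At 24 h it was 3.03, 3.14, 2.99 and 3.17, and at 48 h it was 2.45, 2.50, 2.83 and 3.00. All 8 EGF values lay below the 4 CTRL values, as at 243 of all shared sites (0.835%). The difference was -0.88 ± 0.13 (SE, limma adjusted p = 0.00824). The call was lost with lane as a term (-1.03), with peak number as a covariate (-0.85), and with any 1 library other than EGF 48 h replicate D left out (-0.83 to -0.92). Without EGF 24 h replicate C, the 1 weaker site was a different one.

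Of the 109 sites weaker at 48 h, the following 8 had the lowest adjusted p with a protein-coding start within 50 kb. The nearest gene is given as a place and not as a target. In an intron of IPO11, which encodes a nuclear import receptor, the site gave 4.13, 4.21, 4.14 and 4.08 in CTRL, 3.46, 3.69, 4.03 and 3.57 at 24 h and 3.39, 3.03, 3.23 and 3.01 at 48 h. Each 48 h value was below each CTRL and 24 h value. The difference at 48 h was -0.98 ± 0.13 (SE, adjusted p = 0.00041), or 50.8% of the CTRL fold enrichment.

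In an intron of SUPT3H, which encodes a subunit of the SAGA transcription coactivator, the site at chr6:45075255-45075729 fell by 0.89 at 48 h (adjusted p = 0.000783). It gave 4.20, 4.02, 4.13 and 3.98 in CTRL, a mean of 3.86 ± 0.19 (SD, n = 4) at 24 h and 2.92, 3.47, 3.37 and 2.99 at 48 h. Values at 24 h overlapped CTRL there and those at 48 h did not. An intergenic site on chromosome 12 lay 35202 bp from EIF2S3B, a gene for a gamma subunit of translation initiation factor 2. It gave 3.24, 3.93, 3.69 and 3.57 in CTRL, 3.46, 3.69, 3.30 and 3.38 at 24 h and 2.45, 2.62, 2.64 and 2.51 at 48 h. The difference at 48 h was -1.06 ± 0.15 (SE, adjusted p = 0.000783), and the 24 h values lay within the CTRL range.

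Of these 8, the site nearest to CNBD1 fell furthest, by 1.30 at 48 h (adjusted p = 0.000783). CTRL gave a mean of 3.74 ± 0.19 (SD, n = 4), EGF at 24 h 2.77, 3.13, 3.46 and 3.37, and EGF at 48 h 2.13, 2.84, 2.83 and 1.99. Here the 24 h libraries already lay below all CTRL libraries. Introns of GLYAT, for an enzyme that joins glycine to acyl-CoA, and of TMEM209 held sites that fell by 1.04 and 1.02. The TMEM209 site gave 3.52 to 3.66 in CTRL, 3.33 to 3.77 at 24 h and 2.41 to 3.00 at 48 h. An intron of PLCE1, which encodes a phospholipase C that RAS proteins bind, held a site that fell by 0.88 (adjusted p = 0.00116). The site nearest to CCDC7 fell by 0.87.

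The 1 promoter among the 109 was that of BCL2A1, which encodes an anti-apoptotic member of the BCL2 family, with its summit 23 bp from the start. It gave 3.55, 3.80, 3.78 and 4.05 in CTRL, 3.36, 3.72, 3.32 and 3.67 at 24 h and 3.13, 2.99, 3.08 and 2.89 at 48 h. The difference at 48 h was -0.77 ± 0.14 (SE, adjusted p = 0.00429). An intron of CD44, the receptor for hyaluronan, held a further site of the 109, named after its values were seen, 75672 bp from the start (chr11:35214544-35215268). It gave 3.52, 3.81, 3.68 and 3.75 in CTRL, 3.77, 3.14, 3.83 and 3.62 at 24 h and 2.57, 2.46, 2.88 and 2.88 at 48 h. Its difference at 48 h was -0.99 ± 0.16 (SE, adjusted p = 0.00116).

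**Figure D2:**
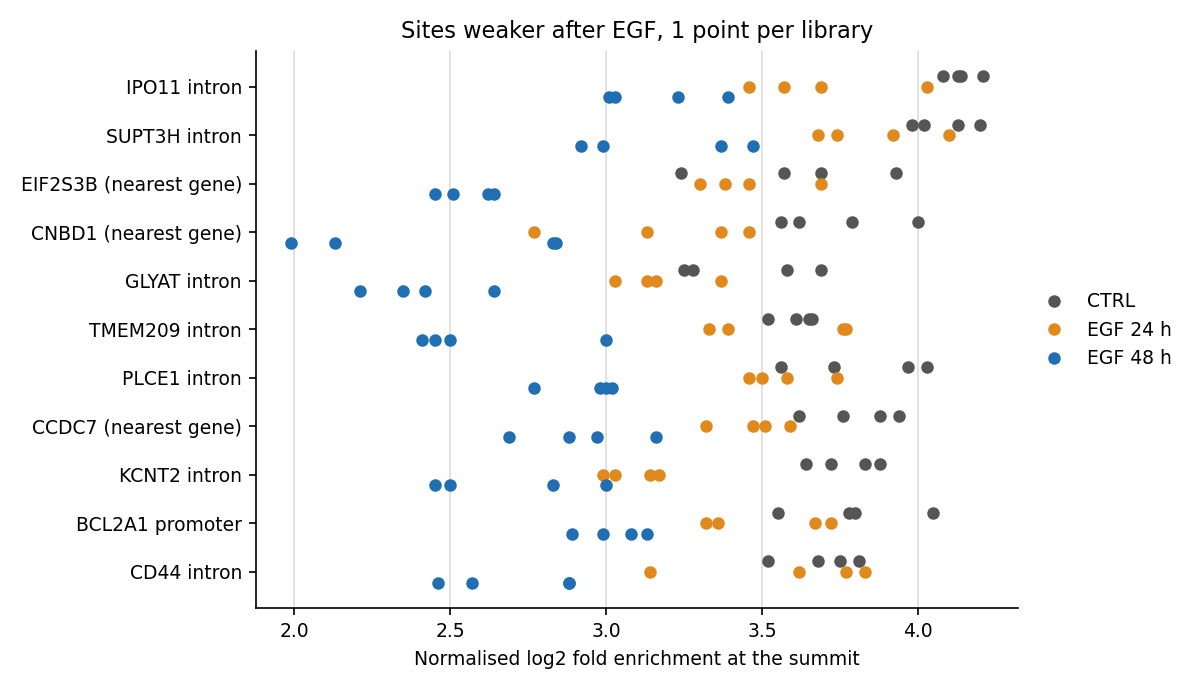
Normalised log2 fold enrichment (x axis) of the 8 named sites, the KCNT2 site, the BCL2A1 promoter and the CD44 site, with 1 point per library in CTRL (grey), EGF 24 h (orange) and EGF 48 h (blue). At each site the 4 values at 48 h lie below the 4 CTRL values, while the 24 h values overlap CTRL at all but the IPO11, CNBD1, CCDC7 and KCNT2 sites.

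As a set, the 109 sites had a median difference of -0.882 at 48 h and of -0.268 at 24 h, on the log2 scale. Their mean level was 3.70, 3.75, 3.70 and 3.70 in CTRL, 3.41, 3.37, 3.50 and 3.51 at 24 h and 2.79, 2.78, 2.96 and 2.80 at 48 h. All 20477 distal shared sites had means of 3.25 to 3.33 in the same libraries. The 109 sites were chosen by the 48 h values, so those levels describe the choice. At 24 h, 102 of the 109 (93.6%) were below the CTRL mean, against 48.3% of all shared sites, but both contrasts share the CTRL libraries, so this count is no separate evidence. At all 109, the 4 values at 48 h lay below the 4 in CTRL, against 1476 of all shared sites (5.07%). At 76 of the 109, the 4 values at 48 h also lay below the 4 at 24 h, against 820 of all shared sites (2.82%), and at 21 all 8 EGF values lay below CTRL, against 243 (0.835%). These counts reuse values that chose the sites, so exceeding the shares of all shared sites is no separate evidence. Within lanes 4, 6 and 8 all 109 were lower at 48 h, with medians of -0.93, -0.95 and -0.76, against -0.05, -0.01 and -0.01 for all distal sites. Since 48 h and CTRL values overlapped at none of the 109, lower values within each lane were fixed by the choice. They are therefore no check of lane.

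**Figure D3:**
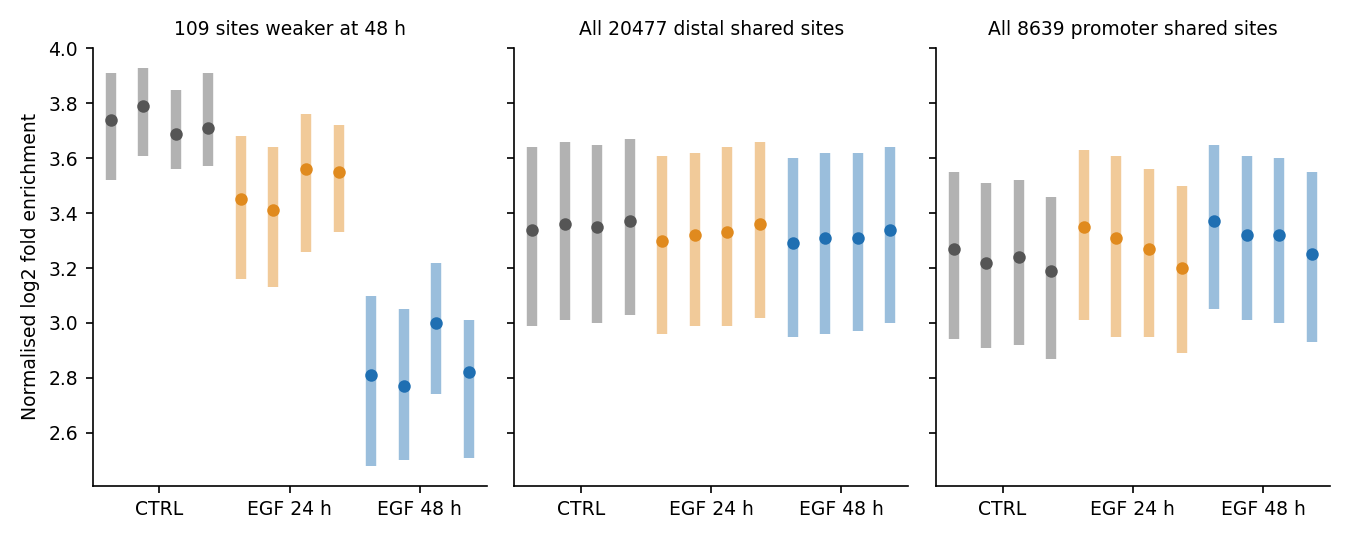
Normalised log2 fold enrichment in each library, with the median as a point and the interquartile range as a bar, for the 109 sites weaker at 48 h, all distal and all promoter sites with a peak in all 12 libraries. Library medians of the 109 sites run from 3.79 to 2.77 and are lowest at 48 h, while those of all distal sites stay between 3.29 and 3.37 and those of promoters between 3.19 and 3.37.

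What the 109 sites share was described beside all distal shared sites, with no test. Their median distance to a protein-coding start was 74.2 kb against 41.6 kb for all distal shared sites, and 41 of the 109 had a start within 50 kb. Median GC content of the 201 bp window was 44.8% against 48.3%, and median width 597 bp against 709 bp. AP-1 motifs stood in 79 of the 109 windows (72.5%), against 54.4% of all distal shared sites and 60.6% of those with the same spread over 10 bins of GC content. The same letters in reverse order stood in 11.9% against 8.05% of all distal shared sites, so the share of the composition control was higher too. The motif of KLF and SP factors, GGGCGGG on either strand, stood in 0.917% against 5.58%, and 1.26% at the same GC content. Of the 24 sites stronger at 48 h at the threshold of 0.05, 33.3% held the AP-1 motif and 29.2% the KLF and SP motif, and 7 were promoters. Those 7 were 29.2% of the 24, and promoters were 29.7% of all shared sites. Promoter shared sites held the AP-1 motif in 5.66% and the KLF and SP motif in 46.5%. The distal shares alone are therefore no fitting background for these 24 sites.

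AP-1 was also followed over all distal sites, as the mean of sites with the motif minus that of sites without it in the same GC bin. For detection this covered 71020 distal sites with a peak in 2 to 11 libraries, none of them among the 109. Detection is 1 or 0 for each site and library, minus the share of sites of the same class that the library detects. The motif difference was 0.00741, 0.0558, 0.0355 and 0.0485 in CTRL and 0.0171, 0.00302, 0.0604 and 0.0652 at 24 h. At 48 h it was -0.0828, -0.0672, -0.0784 and -0.0644, below every other library. The step from CTRL to 48 h was -0.11 (exact permutation test, two-sided, 4 against 4, p = 0.0286, the smallest this test can give), and from CTRL to 24 h it was -0.000385 (p = 1 in the same exact test). For strength at shared sites the step from CTRL to 48 h was -0.0399 (exact permutation test, p = 0.0286). These contrasts by time were chosen after seeing the data, and over the 24 motifs the lowest adjusted p was 0.098 for detection and 0.137 for strength. The same letters in reverse order, a control for composition, gave -0.0666 and -0.0241 (exact permutation test, p = 0.0286 each). AP-1 was not the only motif at an unadjusted p under 0.05 from CTRL to 48 h. By detection there were 7 of 24, with RUNX also lower and CRE, CEBP, ETS, MYC and ZEB higher. By strength there were 5 of 24, with CEBP, GRHL, ZEB and AP-2 higher. Reversed motifs gave 4 of 23 by detection and 3 of 24 by strength.

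**Figure D4:**
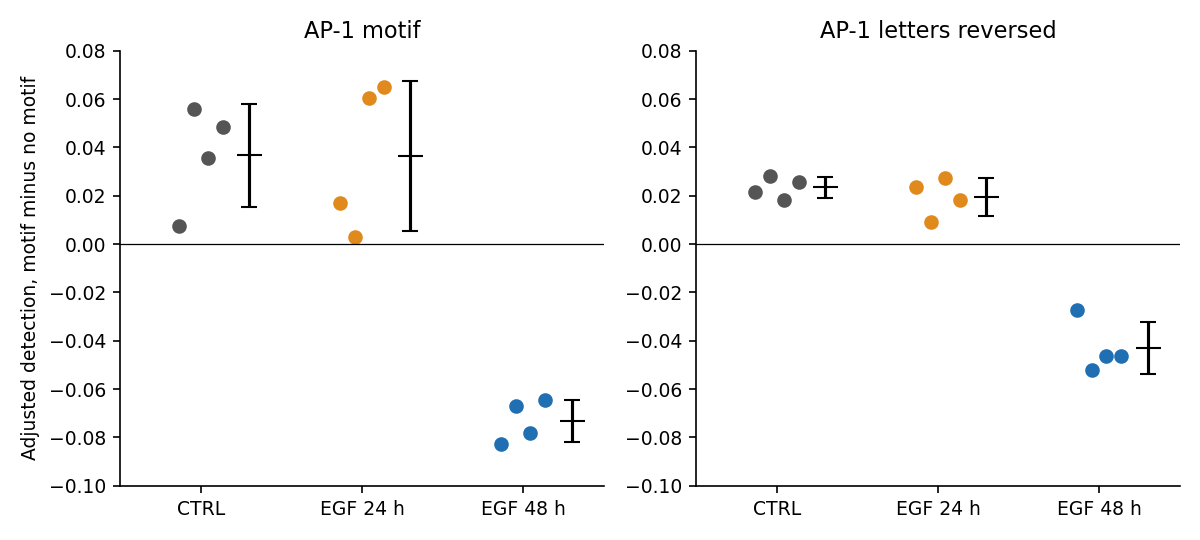
Adjusted detection of distal sites with the AP-1 motif minus that of sites without it at like GC content (y axis), with 1 point per library and the mean and SD of 4 libraries, for the motif (left) and for its letters reversed (right). The 4 libraries at 48 h lie below 0 and below all others in both panels, at -0.0828 to -0.0644 for the motif.

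With both EGF times set against CTRL, none of 24 motifs passed an adjusted p of 0.05 by strength or by detection (exact permutation tests, 8 against 4). The lowest adjusted p was 0.121 by strength, shared by the CRE motif TGACGTCA (0.0551) and the KLF and SP motif (0.0269), and 0.097 by detection, for RUNX (TGTGGTT, -0.023). At an unadjusted p under 0.05 there were 3 motifs by strength and 5 by detection, against 3 and 3 among the reversed motifs.

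The 2 EGF times differed from each other at 16 sites. At 48 h, 14 sites were weaker than at 24 h (0.0481%) and 2 stronger (0.00687%). Of the 14, 12 were also weaker at 48 h than in CTRL, 10 held the AP-1 motif, and at 12 the 24 h values overlapped CTRL. They included the TMEM209, EIF2S3B and CD44 sites. A site 32220 bp from HAS2, which encodes a hyaluronan synthase, gave 3.80, 4.02, 3.68 and 3.86 in CTRL, a mean of 3.90 ± 0.10 (SD, n = 4) at 24 h and 3.27, 3.24, 3.18 and 2.67 at 48 h. It fell by 0.81 between the times (adjusted p = 0.00724). Beside CAB39, which encodes a scaffold that activates the kinase LKB1, a site gave 2.63 to 2.96 in CTRL, 2.73 to 3.11 at 24 h and 1.72 to 2.07 at 48 h. In an intron of FAM83B, which encodes a scaffold of EGFR signalling, the site gave 3.58 to 3.97 in CTRL, 3.99 to 4.32 at 24 h and 3.00 to 3.63 at 48 h.

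The 2 sites stronger at 48 h than at 24 h were low at 24 h and like CTRL at 48 h. A site 50731 bp from DDX3X, which encodes an RNA helicase, gave 3.57, 3.49, 3.79 and 3.65 in CTRL, 2.93, 2.24, 2.50 and 2.83 at 24 h and 3.43, 3.49, 3.65 and 3.51 at 48 h. Its rise between the times was 0.89 (adjusted p = 0.00724). The site nearest to RALGAPA2, for a GTPase-activating protein of Ral, rose by 1.34 (adjusted p = 0.0049), with 24 h values of 2.34, 2.26, 1.85 and 3.47 against 3.46 to 3.84 in CTRL. The count of 14 was 0 with lane as a term. It was 16 without EGF 24 h replicate B, 0 without EGF 24 h replicate D, and 1 to 9 without any other library.

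Among sites stronger at 48 h at the threshold of 0.05, EHF, which encodes an epithelial ETS factor, held one in an intron 2191 bp from its start. It gave 2.93, 2.56, 2.51 and 2.49 in CTRL, 2.76, 2.87, 2.76 and 2.71 at 24 h and 3.49, 3.35, 3.15 and 3.31 at 48 h (difference 0.70 ± 0.15, SE, adjusted p = 0.0153). An intron of IL20RA, for a subunit of the receptor for interleukin 20, held a site that gave 2.67 to 3.14 in CTRL and 3.50 to 4.12 at 48 h (adjusted p = 0.0118). At the promoter of CA11, which encodes a carbonic anhydrase-related protein, values were 1.92 to 2.49 in CTRL, 2.86 to 3.03 at 24 h and 2.84 to 3.17 at 48 h (adjusted p = 0.0139). None of these passed the threshold of 0.01, and 0 stronger sites did.

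By detection, both EGF times against CTRL gave 0 gained and 0 lost sites (0%) at an adjusted p under 0.01, with 7765 of 76542 at an unadjusted p under 0.05. EGF at 24 h gave 0 and 0 (3950 at an unadjusted p under 0.05), and 48 h against 24 h gave 0 and 0 (5598). At 48 h, 7 sites were gained (0.00915%) and 0 lost. Sites with a peak in all 4 CTRL libraries and in no EGF library differed by only -0.579 in adjusted detection at 48 h (limma adjusted p = 0.0352). Even that pattern could not be called after the adjustment by class, so 0 lost does not show that no peaks were lost. The adjusted p-values of this test are too small, since on simulated data most of its calls were false, and the calls are given as peak patterns. All 7 had no peak in any CTRL library and a peak in all 4 libraries at 48 h. At 24 h, 2 of the 4 libraries had the peak at the sites nearest to EHBP1 and in an intron of ASTN2, 1 had it at those nearest to LRRC3B and MGMT, and 0 at those in ANXA13, FAM91A1 and in an exon of FAM90A24P, the last in a multigene family whose reads may be split. For EHBP1 the site was chr2:62664282-62665109, with a difference of 1.47 in adjusted detection (adjusted p = 0.00421). Without CTRL replicate B, CTRL replicate C or EGF 24 h replicate B the count was 0, and it was 29, 51 and 16 without CTRL replicate D, EGF 48 h replicate A and EGF 48 h replicate B.

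At the threshold of 0.05, 789 sites (1.03%) were lost and 48 gained (0.0627%) with both times together. The 789 were all the sites with a peak in 4 of 4 CTRL libraries and in 0 of 8 EGF libraries, and they shared 1 adjusted p of 0.0111. They were 789 of the 7133 sites with a peak in 4 of the 12 libraries. With the same number of strongest peaks taken from every library, 0 sites were called in either direction, and the larger peak number of CTRL cannot be told apart from losses at such sites. Among those with the highest fold enrichment and a start within 50 kb, one lay in an intron of RHOT1, which encodes a mitochondrial GTPase, at a mean of 13.2 in CTRL. Others were in CDK5RAP1 (12.1), near VWA3B (12) and near CDNF (11.7).

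No gene of 18 lists had a site called at 0.01 within 50 kb. At 0.05, sites in CTRL only lay 16948 bp from CDKN1A, the p21 inhibitor of cell cycle kinases, and within 50 kb of PIK3IP1, BTG1 and GADD45A. These were 4 of 117 tested sites near genes of FOXO targets and growth arrest (3.42%, against 1.03% of all). Squamous differentiation genes had 3 of 68 (4.41%), 1 of them 95 bp from SPRR1B, for a cornified envelope protein. Immediate early and ERK target genes had 1 of 113, near KLF6, and the feedback inhibitors 0 of 74. DNA replication and mitosis genes had 2 of 89 (2.25%), near MCM5, for a subunit of the replicative helicase, and CCNE2, for a cyclin E. In the other direction, sites gained at 48 h at 0.05 lay 30900 bp from JUN, 1163 bp from KLF6 and 30759 bp from PDE4B, which encodes a cAMP phosphodiesterase, and 27 bp from the start of IL1A, for interleukin 1 alpha, by the same detection test with its too small adjusted p-values. The IL1A promoter had a peak in 1 CTRL library, 1 library at 24 h and 4 at 48 h, and the site near JUN in 1, 0 and 4. Over all 76542 tested sites, 134 (0.175%) were gained at 48 h at this threshold. Whether sites near listed genes exceed that share was not tested. Sites weaker at 48 h at 0.05 lay 34326 bp from HBEGF, an EGF family ligand, with PFDN1 nearer (-0.56, adjusted p = 0.0422), 13852 bp from NR4A2 (-0.67, adjusted p = 0.0153) and 47982 bp from CXCL1 (-0.56, adjusted p = 0.0315). Further ones lay 27390 bp from PCNA (-0.61) and 27810 bp from the endothelial marker PECAM1 (-0.58). Their lists had 26, 51, 45, 56 and 9 shared sites nearby, with 1 weaker site each. Near the other lists there were none, as in 0 of 97 for adhesion, matrix and migration genes. Of all shared sites, 1.52% were weaker at this threshold.

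By fold enrichment, promoters of the listed genes with a peak in all 12 libraries passed neither threshold, and their medians are given beside that of all 8639 promoter sites, which was 0.07 with both times together (5893, or 68.2%, above 0). Immediate early and ERK target genes had a median of 0.27 (13 of 15 above 0), feedback inhibitors 0.20 (10 of 12), FOXO targets 0.19 (13 of 16), and adhesion, matrix and migration genes 0.20 (11 of 14). DNA replication and mitosis genes had 0.14 (15 of 20), glucocorticoid response 0.16 (11 of 12), cAMP and CREB response 0.16 (6 of 9), sterol synthesis 0.17 (8 of 10) and inflammatory cytokine response 0.19 (8 of 9). EGF family ligands had 0.07 (4 of 6), receptors -0.04 (1 of 3), YAP and TEAD targets 0.08 (5 of 6), and basal epithelial genes 0.00 (3 of 6). Luminal epithelial genes had 0.26 over 3 promoters, squamous differentiation 0.16 over 2 and leukocyte markers 0.25 over 2, while fibroblast and endothelial markers had no promoter with a peak in all 12 libraries. Mean promoter levels over all genes also differed between libraries, from 3.15 to 3.23 in CTRL and from 3.17 to 3.33 after EGF.

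**Figure D5:**
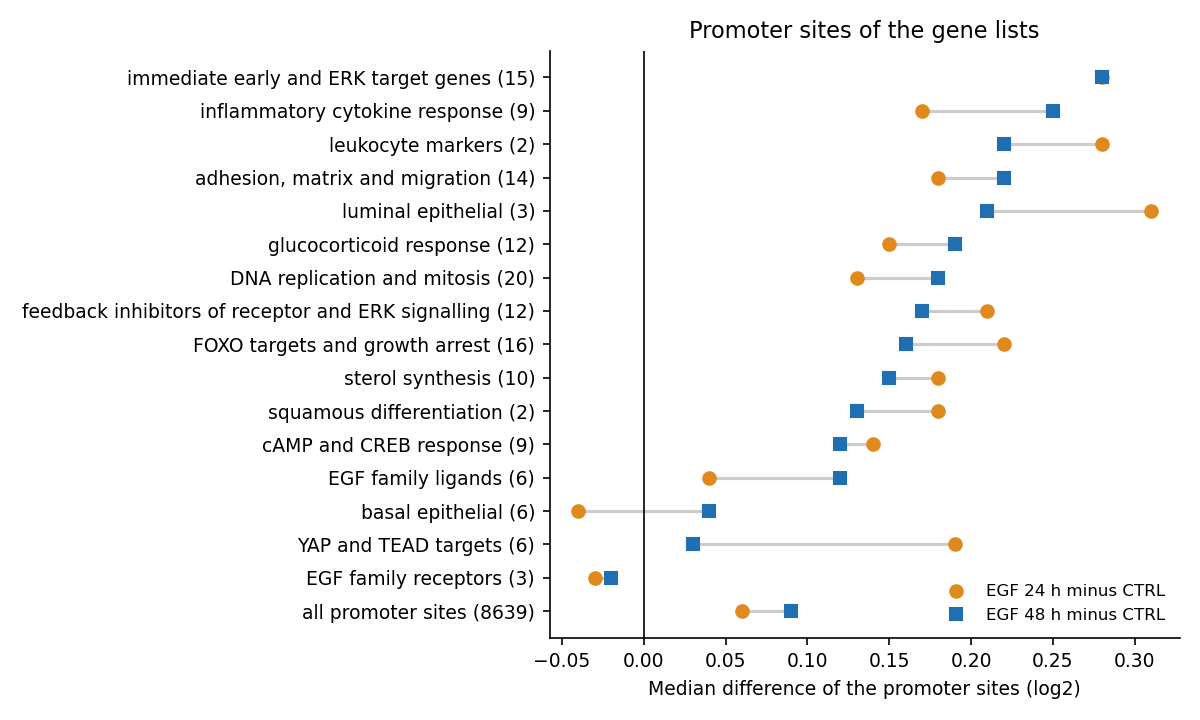
Median difference from CTRL in log2 fold enrichment (x axis) of the promoter sites of each gene list at 24 h (orange circles) and 48 h (blue squares), with the number of promoters in parentheses. Immediate early and ERK target genes stand highest at 48 h, at 0.28, while all promoter sites stand at 0.06 and 0.09.

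Single promoters of the EGF pathway are given as examples chosen after their values were seen. At the promoter of JUN, which encodes an AP-1 subunit, CTRL gave 2.95, 2.97, 2.99 and 2.92, EGF at 24 h 3.68, 3.95, 3.31 and 3.28, and EGF at 48 h 3.14, 3.21, 3.16 and 3.21. All 8 EGF values lay above CTRL, as at 356 of all shared sites (1.22%) and 152 of the promoter sites (1.76%), and the difference was 0.41 ± 0.13 (SE, adjusted p = 0.145). EGR1, an immediate early zinc finger factor, gave 2.61, 2.55, 2.55 and 2.60 in CTRL, 3.08, 3.31, 2.84 and 2.76 at 24 h and 2.98, 3.05, 2.75 and 3.15 at 48 h (0.41 ± 0.14, SE, adjusted p = 0.157). The groups did not overlap at EGR1 either. The differences were 0.08 for JUN and 0.14 for EGR1 with log10 peak number as a covariate, and the part of peak number in them was not tested further.

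The ERK phosphatase gene DUSP6 differed by 0.27 ± 0.15 (SE, adjusted p = 0.371, and -0.08 with the covariate), and SPRY2, for an inhibitor of receptor signalling, by 0.38 ± 0.14 (SE, adjusted p = 0.206). EGFR itself gave 3.24 to 3.64 in CTRL, 3.27 to 3.61 at 24 h and 3.28 to 3.50 at 48 h, a difference of -0.04 ± 0.12 (SE, adjusted p = 0.903, and 0.03 with lane as a term). The lowest adjusted p among listed promoters was that of BCL6, which encodes a transcriptional repressor under FOXO control, with a mean of 1.97 ± 0.24 (SD, n = 4) in CTRL, 2.52, 2.45, 2.62 and 2.39 at 24 h and 2.74, 2.84, 2.67 and 2.15 at 48 h. BCL6 differed by 0.58 ± 0.15 (SE, adjusted p = 0.0705). MMP1, for an interstitial collagenase, gave 3.35, 3.55, 3.80 and 3.53 in CTRL, 3.23, 2.75, 3.40 and 3.31 at 24 h and 2.90, 3.22, 2.98 and 3.09 at 48 h, a difference of -0.45 ± 0.14 (SE, adjusted p = 0.124, and -0.19 with the covariate).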

How the data were processed

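ATAC-seq peaks of 12 libraries were used, grouped by their titles. Per the study's methods and the submitters' processing notes, the authors trimmed reads with Trimmomatic 0.36.5, aligned them to hg38 with Bowtie2 2.3.4.1, removed mitochondrial and duplicate reads (Picard) and called peaks separately per library with MACS2 2.1.1.20160309.5 at q 0.01. As deposited, each peak has a ratio (summit pileup over local background, called fold enrichment), a -log10 p and a -log10 q, a score made from the q, and its position. No read counts are in these files, so more deeply sequenced libraries, which tend to give more peaks, cannot be weighed by depth.

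Peaks on primary chromosomes were merged where they overlapped by 1 bp and annotated with GENCODE release 44 by the middle summit. A promoter site lay within 1000 bp of a protein-coding start. Detection was adjusted for peak number by the class of a site, which is the number of libraries that detect it. Detection and quantile-normalised log2 fold enrichment (no pseudocount, strongest peak of a site) were fitted with limma 3.58.1 in R 4.3.3 over all 3 groups, with Benjamini-Hochberg adjustment over all sites tested. Values with 1 number per library went into two-sided exact permutation tests, in which 8 against 4 libraries cannot give a p below 0.00202. Other steps used Python 3.11.15, numpy 2.4.6, pandas 2.3.3 and matplotlib 3.10.9. Tested on simulated data, both fits found most of the changed sites. The fold enrichment fit made few false calls, but in the detection fit most calls were false, so the adjusted p-values of the detection fit are too small. In the simulated fold enrichment, noise was independent between libraries and each site had the same SD in all groups. Effects of lane, peak number or unequal spread on fold enrichment were not simulated. Named sites were those with the lowest adjusted p, 1 per gene, among calls with a start within 50 kb and no overlap of the EGF with the CTRL values. Since both times together gave 1 call, the rule was applied to 48 h against CTRL after seeing the data. Members, gene lists and motifs were chosen with earlier results of these data known. Alternatives covered normalization, measure, filters, overlap, covariates, lane, the replicate letter and each library left out. Replicate letters are shared by the groups, and whether they pair the libraries was checked.
Some named sites and sequences are not reported here.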

Additional observations from a re-analysis of the deposited data

Results flagged for a closer look

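A library stood apart from the other 3 of its group in 8 of 132 groups of 4 values tested, and chance flags about 1 group in 20. At 48 h these were 3.00 in TMEM209, 2.77 in PLCE1, 4.05 in DPT, 2.67 near HAS2 and 2.72 at the HBEGF promoter. At 24 h it was 3.28 at the SPRY2 promoter. In CTRL it was 2.93 in EHF and 2.88 at a site whose nearest gene, EIF3H, was 525087 bp away, all as log2 fold enrichment.

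The EGF libraries at 24 h and at 48 h differed from each other at 16 sites (limma contrast of the times, adjusted p under 0.01). EGF and time in culture cannot be told apart in this contrast. At 14 the log2 difference of 48 h from 24 h was negative, among them -0.88 in LYST, -1.09 near CAB39, -0.90 near NMNAT3 and EIF2S3B, -0.89 near PCDH7 and EIF3H and in CD44, -0.96 near DNAH5, -0.80 in FAM83B, -0.97 in TMEM209, -0.81 near HAS2, -1.0 in SLC44A1 and -1.03 near SLC38A2. It was 1.34 near RALGAPA2 and 0.89 near DDX3X. A gene given here after near is only the nearest one, from 31903 bp (CAB39) to 525087 bp (EIF3H) away.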

How the results depend on the processing

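No called value changed direction under the alternatives run. The alternatives reuse the values that gave the calls, so a kept direction is no separate evidence. Among promoters that passed no threshold, DUSP6 became -0.08 and FOSL1 -0.06 with the peak number covariate, HBEGF -0.06 by -log10 q, and EGFR 0.03 with lane and -0.11 to 0.02 with 1 library left out, above 0 without CTRL replicate C. Over the counts and library values, 99 alternatives other than leaving out 1 library kept the result, 75 moved it and 2 brought it past the threshold. Leaving out 1 library kept it in 172 fits, moved it in 66 and brought it past the threshold in 2. Over the named sites, promoters and the AP-1 motif, leaving out 1 library kept the result in 428 fits and lost a call in 190. The other alternatives kept it in 352 and lost a call in 87. Sites are given as gained/lost by detection and stronger/weaker by fold enrichment. Detection of both times together, 0/0 as reported, was 3/1008 raw, 9/966 at -log10 q of at least 4, 14/789 for 3 to 11 libraries, 7/806 with the peak number covariate, 42/85 with all 42 libraries and 48/789 at an adjusted p under 0.05. At 24 h, 0/0 became 210/959 with the covariate and 27/789 at 0.05, with 944 lost raw. At 48 h, 7/0 became 3/853 raw, 11/870 with the covariate, 152/21 with all 42 libraries and 134/789 at 0.05, and 0 gained with the same number of strongest peaks or with lane. For 48 h against 24 h, 0/0 became 158/64 raw and with the covariate, 72/86 with all 42 libraries and 3/64 at 0.05.

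Fold enrichment of both times, 0/1, became 4/11 by -log10 q and 8/57 at 0.05, with 0 weaker under the covariate or lane. At 24 h, 0/0 became 1/6 by -log10 q, with 5 weaker at 0.05. At 48 h, 0/109 became 12/234 by -log10 q and 24/444 at 0.05, with 3 stronger by median centring, 2 stronger with at least 10 libraries or no trend, 11 weaker with the covariate and 28 weaker with lane. For 48 h against 24 h, 2/14 became 36/107 by -log10 q, 1/0 with at least 10 libraries, 0/0 with lane, 0/6 with no trend and 23/103 at 0.05, with 1 stronger under the covariate, 29 weaker by median centring and 32 weaker by cyclic loess. The difference in median fold enrichment was -2.54 with the same number of strongest peaks. Causes were not tested beyond the number of sites or libraries an alternative leaves.

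The labels do not say that replicate letters pair the libraries, and not every same-letter correlation of deviations was over 0.1, so the letters were treated as names. Same-letter correlations ran from -0.0402 to 0.234 by fold enrichment, with 11 of 12 above 0 and 7 over 0.1, against -0.239 to 0.172 for different letters, and from 0.00184 to 0.111 by detection. Libraries correlated best with their own letter in 19 of 24 cases by fold enrichment and in 15 of 24 by detection, a hint from the data. The study mentions sets of replicates for its imaging and protein arrays, but does not state that letters pair these libraries. With the replicate block, median fold enrichment differed by -0.642, 0 sites were gained at 48 h, and stronger/weaker counts were 2/7 for both times, 1/2 at 24 h, 6/212 at 48 h and 5/31 for 48 h against 24 h.

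With 1 library left out, gained sites ranged from 0 to 37 for both times, 0 to 7 at 24 h, 0 to 51 at 48 h and 0 to 5 between the times, and lost sites from 0 to 853, 0 to 853, 0 to 0 and 0 to 70. The 853 came without EGF 24 h replicate A. Stronger sites ranged from 0 to 0, 0 to 1, 0 to 4 and 0 to 1, and weaker sites from 0 to 1, 0 to 7, 24 to 176 and 0 to 16. Peak number ranged from -0.191 to -0.139 (log10), promoter share from 3.4 to 4.47 points and median fold enrichment from -0.753 to -0.502. Unknown depth limits every comparison of detection.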

Other observations

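The 109 sites weaker after 48 h of EGF were also looked up in other libraries of the series, as a description with no test. With PBS for 48 h, 52.3%, 47.7% and 4.59% of them had a peak in the 3 libraries, against 78.7%, 77.3% and 27.5% of all distal shared sites. With PBS for 24 h the shares were 98.2%, 61.5% and 48.6%, against 98.1%, 77.6% and 69.1%. With IFNG and EGF for 48 h they were 76.1%, 77.1% and 0%, against 94.9%, 97.4% and 5.75%. With TGFB and EGF for 48 h they were 60.6%, 6.42% and 90.8%, against 48%, 7.08% and 88.7%. With HGF for 48 h they were 97.2%, 97.2% and 32.1%, against 98.5%, 99.2% and 68.5%, and with OSM for 48 h 99.1%, 17.4% and 65.1%, against 96%, 23% and 67.2%. The 30 libraries of these groups and their 24 h times gave 4217 to 109778 peaks.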
